A study of Mus musculus with 2 samples.

Results

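Fc receptors are cell-surface proteins that bind the constant (Fc) part of antibodies. The 7 genes described here, Fcgr1, Fcgr2b, Fcgr3, Fcgr4, Fcer1g, Fcer1a and Fcrls, were found by their symbols among the 32285 genes of the count tables, and all 7 were present. They were followed through the cell classes of inflamed mouse gingiva in 2 single-cell RNA libraries, 1 normoglycemic and 1 diabetic. Both groups had the genotype CD11CCre-/-;FoxoLL on the mixed background C57B6 - FVB, according to the labels. Diabetes of the type I kind was induced with streptozotocin, which destroys insulin-producing cells. Gingival inflammation was driven with bacteria for 2 weeks and tissue was taken after a further wait of 2 weeks. Each library came from gingiva pooled over 4 mice. Cells were sorted as CD45+ with 20% enrichment for CD11c+ cells and against DAPI, CD31 and Ter-119, and 10000 were loaded. With 1 library per condition there is no replicate, so no test compares the conditions, and every interval below is a 95% interval for counting error only.

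Activating Fc gamma receptors bind immunoglobulin G and signal through the shared gamma chain encoded by Fcer1g, whose ITAM motif recruits the kinase Syk. Fcgr1 encodes the high-affinity receptor, Fcgr3 a low-affinity receptor of many myeloid and natural killer cells, and Fcgr4 a receptor of neutrophils, monocytes and macrophages. Fcgr2b encodes the only inhibitory member, which recruits the phosphatase SHIP1 (Inpp5d) and is the main Fc gamma receptor of B cells. Fcer1a encodes the chain of the high-affinity immunoglobulin E receptor that binds the antibody, and is known from mast cells and basophils. Fcrls is a scavenger-receptor-like relative known from macrophages and microglia. In the gum, antibody against oral bacteria is a usual part of the inflamed tissue, and these receptors are the route by which phagocytes and mast cells sense it.

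In the GENCODE M21 annotation of GRCm38, 5 of the 7 genes lay on chromosome 1. Fcgr2b (ENSMUSG00000026656) occupied 170958617 to 170976547, Fcgr4 (ENSMUSG00000059089) 171018920 to 171029761, Fcgr3 (ENSMUSG00000059498) 171051174 to 171064935 and Fcer1g (ENSMUSG00000058715) 171229572 to 171234365. Fcgr2b and Fcgr4 were 42.4 kb apart, and Fcgr4 and Fcgr3 were 21.4 kb apart. Fcer1a (ENSMUSG00000005339) followed at 173221284 to 173227214. On chromosome 3 were Fcrls (ENSMUSG00000015852), at 87250758 to 87263738, and Fcgr1 (ENSMUSG00000015947), at 96282909 to 96293969. No exon of another gene overlapped the last exon of any member. No run of 31 bases was shared between the last 500 bases of the protein-coding transcripts of any 2 members, so 3′ reads of this family could be told apart at that length.

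The stretches before the start sites of Fcgr4, Fcgr1 and Fcer1a are shown because of higher levels in the diabetic library (below). These were found in neutrophils for Fcgr4, type 2 dendritic cells for Fcgr1 and mast cells for Fcer1a. Fcgr1 was lower in diabetic monocytes (ratio 0.670) and macrophages (0.877), where its level was highest. The stretches come from RefSeq on GRCm38.p6, which held a start for all 7 members, and bases that GENCODE places in an exon were left out. Capitals mark matches, on either strand, to the ETS-family core GAGGAA, to GATAA, to the STAT-type palindrome TTCNNNGAA and to the C/EBP-type TTNNGCAA; no 2 matches overlapped.
Fcgr4, chr1:171018676-171018919, plus strand: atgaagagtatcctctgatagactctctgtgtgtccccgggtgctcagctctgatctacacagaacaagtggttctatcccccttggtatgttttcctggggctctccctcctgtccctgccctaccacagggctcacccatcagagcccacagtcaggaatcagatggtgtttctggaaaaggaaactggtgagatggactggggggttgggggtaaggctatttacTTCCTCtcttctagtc
Fcgr1, chr3:96293970-96294219, minus strand: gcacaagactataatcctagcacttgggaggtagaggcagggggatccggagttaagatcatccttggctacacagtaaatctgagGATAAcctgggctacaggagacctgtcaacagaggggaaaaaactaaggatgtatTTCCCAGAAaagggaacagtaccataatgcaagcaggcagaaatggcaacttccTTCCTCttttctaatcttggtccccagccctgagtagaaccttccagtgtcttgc
Fcer1a, chr1:173227230-173227479, minus strand: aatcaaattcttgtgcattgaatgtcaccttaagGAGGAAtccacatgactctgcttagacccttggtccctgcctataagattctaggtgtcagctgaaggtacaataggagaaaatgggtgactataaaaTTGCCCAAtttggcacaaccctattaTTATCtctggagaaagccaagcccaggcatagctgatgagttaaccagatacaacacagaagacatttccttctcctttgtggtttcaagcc
Each of the 3 stretches held 1 match to GAGGAA, which lay 22 bases before the start in Fcgr4, 55 bases before it in Fcgr1 and 216 bases before it in Fcer1a. Among all 27025 promoters of 250 bases, 23.1% held such a match. GATAA was matched in Fcgr1 and Fcer1a and in 23.0% of promoters. The palindrome was matched in Fcgr1 alone of these 3 and in 7.18% of promoters, and TTNNGCAA in Fcer1a alone of these 3 and in 9.55% of promoters. A match is a string of letters in a window, not a measured site.

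The libraries held 11280 normoglycemic and 10496 diabetic barcodes, with 89339733 and 78220582 unique molecular identifiers (UMIs, 1 per captured transcript). After filtering, 10948 and 10260 cells remained, with median depths of 5302.5 and 4631.5 UMIs. A cell was given to a class by its score over that class's markers, which contain no Fc receptor, and 91.1% and 90.8% of cells were placed. Scores within 0.05 of the limit were held by 530 and 464 cells. Classes were compared where both libraries had 100 cells or more, which left 8. They were neutrophils (5354 normoglycemic and 5016 diabetic cells), monocytes (923 and 874), macrophages (1463 and 1359), type 1 dendritic cells (cDC1; 202 and 213), type 2 dendritic cells (cDC2; 457 and 340), alpha-beta T cells (450 and 185), gamma-delta or type 17 T cells (219 and 170) and B cells (296 and 140). Among the 10 genes with the highest fold in each of these classes, 4 to 6 were its own markers and at most 1 was a marker of another class. Because the gate used the same markers, their high rank follows from it and is no separate check. The libraries also differed in ways that touch the results. Cells gated as fibroblasts, mural, epithelial and other non-leukocytes made up 0.475% of normoglycemic and 7.24% of diabetic cells, 32 barcodes occurred in both libraries, and most neutrophils sat in clusters 6, 10 and 7 in the normoglycemic and in clusters 7, 4 and 29 in the diabetic library.

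The level of a receptor in a class is its UMIs per 1000000 UMIs of that class (CPM). Because only transcript 3′ ends were counted, 1 transcript gives at most 1 count whatever its length. Fcer1g was the most abundant member in all 8 classes as gated. In B cells this did not hold without the cells of the highest doublet scores (below). Fcgr2b then stood at 82.1 and 64.8 CPM there, and Fcer1g at 39.0 and 40.0 CPM. Fcer1g reached 2592 CPM in normoglycemic and 3242 CPM in diabetic neutrophils, 2571 and 2290 CPM in monocytes, 1952 and 1933 CPM in macrophages and 1579 and 1711 CPM in cDC2. In cDC1 it stood at 554 and 543 CPM. Natural killer cells, too few for the comparison at 66 and 45 cells, carried 1608 and 1572 CPM. Alpha-beta T cells, which should lack the receptor complex, gave 136 and 97.0 CPM, and levels near these were read as background.

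Fcgr3 was high in the same phagocytes. Neutrophils had 525 and 541 CPM, macrophages 552 and 532 CPM and monocytes 441 and 378 CPM, against 19.0 and 8.08 CPM in alpha-beta T cells. Fcgr1 was held more narrowly, with 159 and 106 CPM in monocytes and 105 and 92.3 CPM in macrophages, but 4.59 and 4.44 CPM in neutrophils and 8.31 and 15.3 CPM in cDC2. Fcgr4 was found at 59.9 and 127 CPM in neutrophils, 61.2 and 81.3 CPM in monocytes and 72.8 and 65.5 CPM in macrophages. In the normoglycemic library its intervals overlapped between neutrophils (57.0 to 63.0) and monocytes (56.6 to 66.1), so these 2 neighbours could not be ordered. In the diabetic library neutrophils (122 to 132) stood above monocytes (75.8 to 87.2).

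The inhibitory gene Fcgr2b had its highest level in macrophages (678 and 466 CPM), then monocytes (534 and 296 CPM) and cDC2 (428 and 252 CPM). B cells held 106 and 64.6 CPM, and neutrophils 47.7 and 41.0 CPM. Fcrls was highest in cDC2 (247 and 41.0 CPM) and macrophages (138 and 47.9 CPM), and the next highest of the 8 classes was normoglycemic monocytes at 6.73 CPM. Fcer1a was near 0 in all 8 classes: it had 1 UMI in each library's neutrophils and none in the other 7. Of its UMIs in all cells, 115 of 116 normoglycemic and 286 of 293 diabetic ones came from mast cells. The class with the highest level was the same by clusters in 10 of the 12 member and library combinations, and by the share of cells after thinning to 1000 UMIs in 11 of 12.

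**Figure D1:**
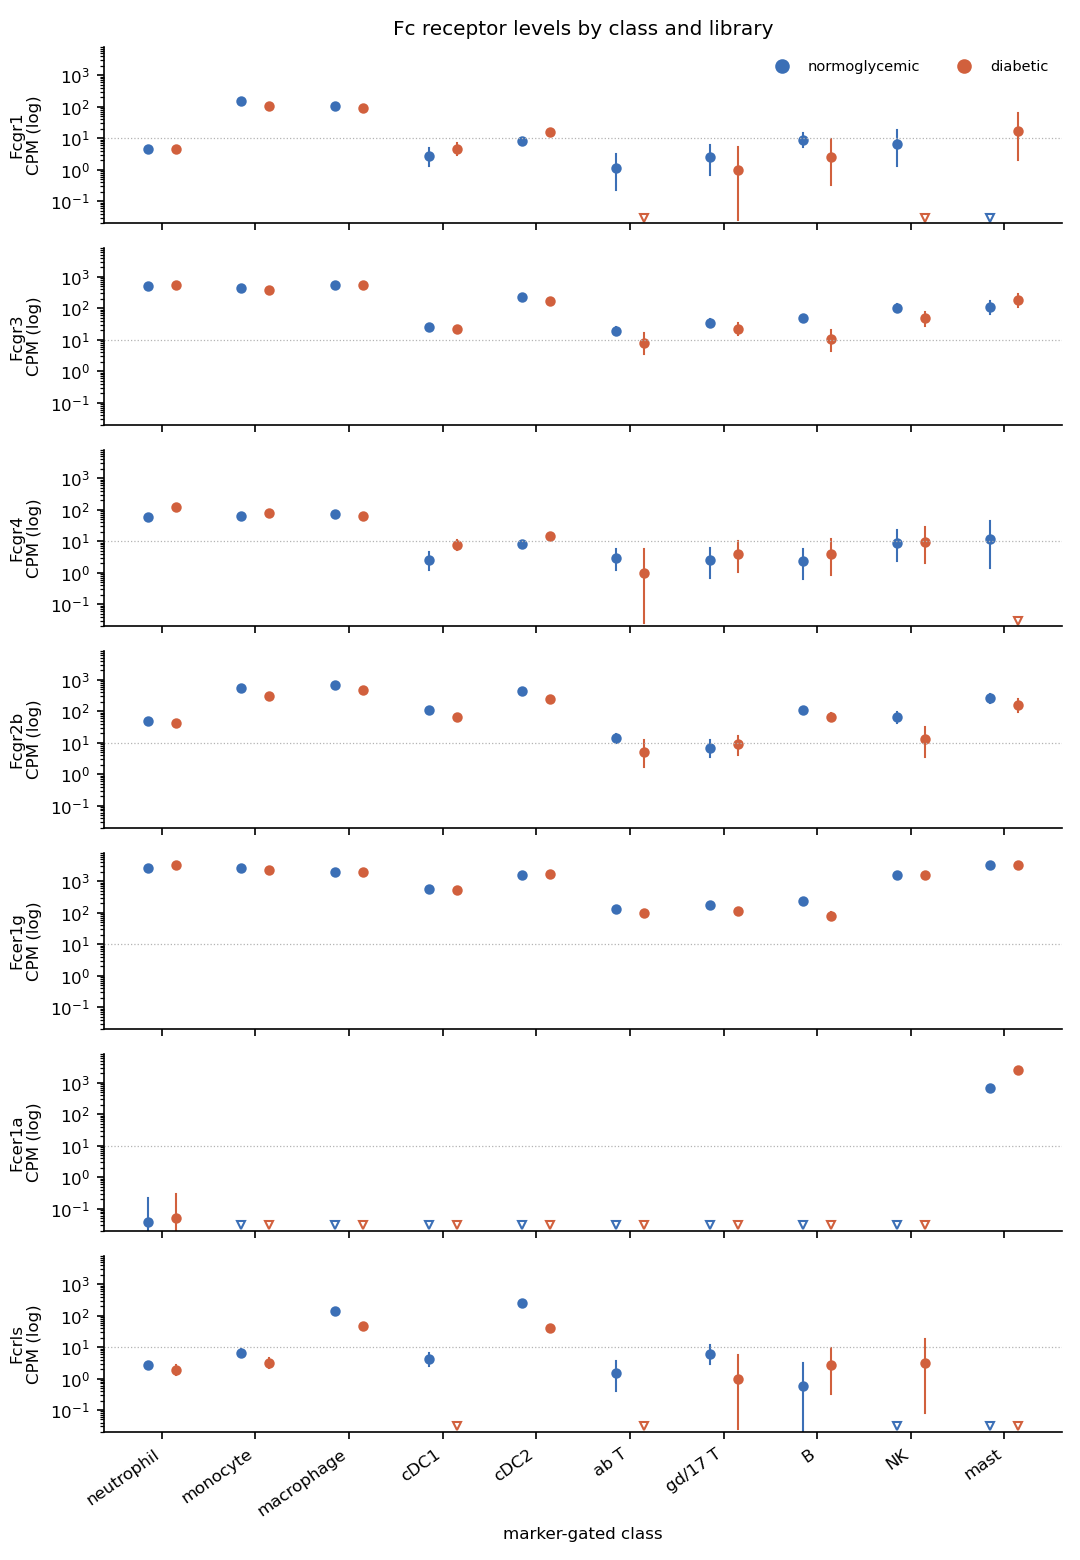
Level of each Fc receptor (CPM, log axis) in 10 marker-gated classes of the normoglycemic (blue) and diabetic (orange) library; bars are exact 95% counting intervals, open triangles mark 0 counts, the dotted line is 10 CPM, and ab T and gd/17 T stand for alpha-beta and gamma-delta or type 17 T cells. Fcer1g is high in all myeloid classes, natural killer and mast cells, and Fcer1a is at 682 and 2455 CPM in mast cells and near 0 elsewhere.

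Of 56 pairs of receptor and class, 32 reached 10 CPM in either library. At least 1.5-fold lower levels in the diabetic library were found for 11 pairs and at least 1.5-fold higher levels for 3, while 18 lay within. Fcgr1 and Fcgr4 in cDC2 reached 10 CPM only in the diabetic library, and Fcgr2b and Fcgr3 in alpha-beta T cells only in the normoglycemic one. These pairs were thus counted only through the library where they were higher. Over all genes passing the same minimum, 12.3% of 54416 gene and class pairs were lower by that much and 7.80% were higher. The median log2 ratio over the 32 pairs was -0.33. In the 5 myeloid classes 5 of 24 measured pairs were lower and 3 were higher, and in the 3 lymphoid classes 6 of 8 were lower. Without the cells of the highest doublet scores (990 normoglycemic and 856 diabetic cells), 6 pairs in all were lower instead of 11. Just inside the limit was Fcgr3 in gamma-delta or type 17 T cells (ratio 0.653), and just outside it were Fcgr1 in monocytes (0.670) and Fcer1g in gamma-delta or type 17 T cells (0.676).

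**Figure D2:**
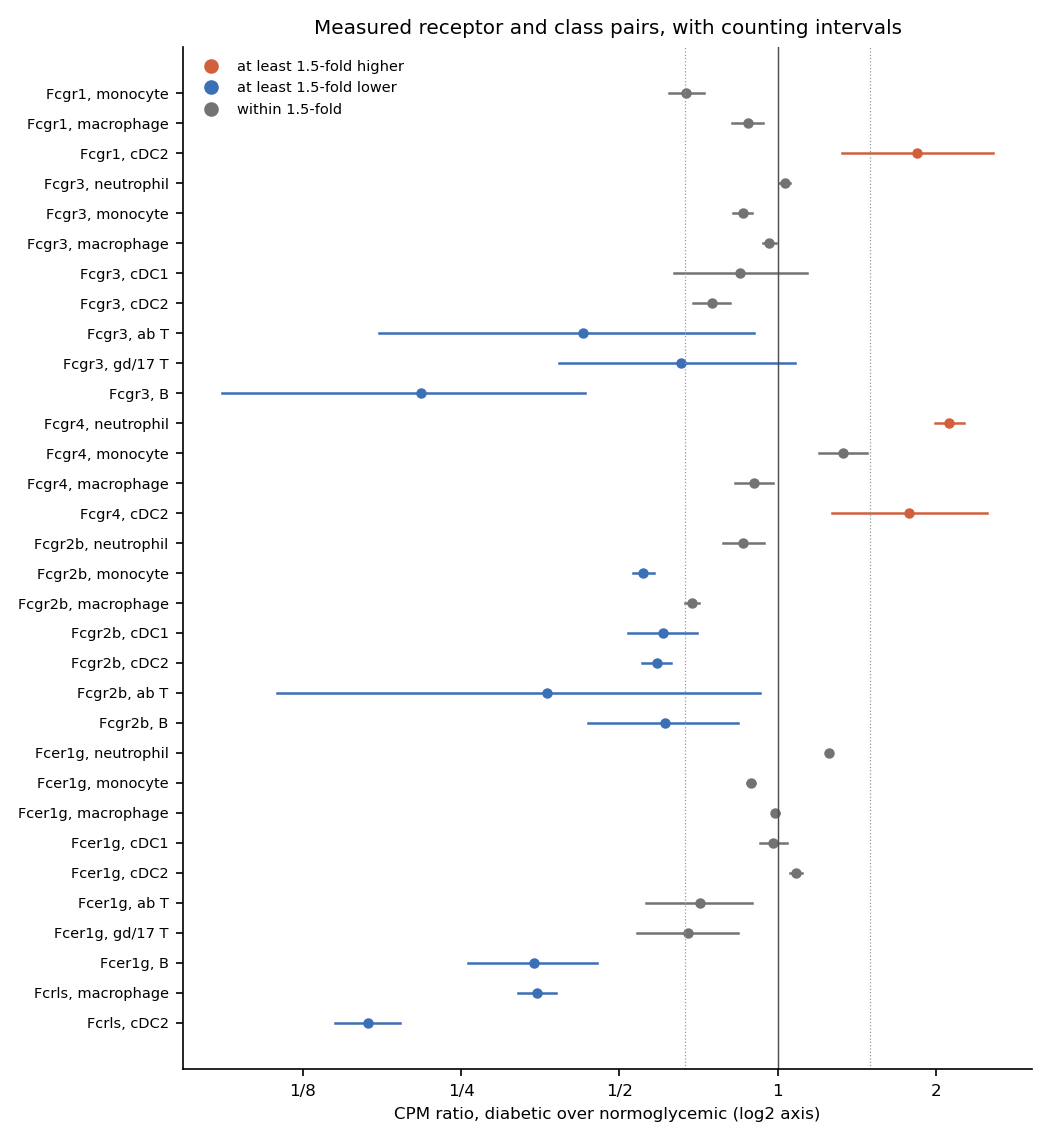
Ratio of CPM, diabetic over normoglycemic (log2 axis), for the 32 measured pairs of receptor and class, with exact 95% counting intervals; dotted lines mark a 1.5-fold difference either way. Fcrls in cDC2 (0.166) and macrophages (0.348) lies far to the left, and Fcgr4 in neutrophils (2.12) far to the right.

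Fcgr4, an activating receptor, was higher in diabetic neutrophils. Neutrophils held 1554 Fcgr4 UMIs in 5354 normoglycemic cells and 2483 in 5016 diabetic cells, that is 59.9 against 127 CPM, a ratio of 2.12 (1.99 to 2.26). It was the 1 measured receptor of 4 in neutrophils past the limit, where 20.3% of genes were higher and 13% were lower. After thinning (5291 and 4952 cells deep enough), 5.63% (5.03 to 6.29) of normoglycemic and 11.6% (10.7 to 12.5) of diabetic neutrophils had a Fcgr4 UMI. Without thinning these shares were 18.7% and 32.7%, at median depths of 4055.5 and 3465 UMIs. Alpha-beta T cells gave thinned shares of 0.223% and 0% (0 of 185 cells, interval up to 1.97%), at median depths of 5623 and 4830 UMIs.

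The difference in Fcgr4 was smaller within clusters of like neutrophils than over the whole class. In cluster 6, led by Lcn2 and Chil1, normoglycemic cells had 26.5 CPM and diabetic cells 26.4 CPM (ratio 0.997, 0.508 to 1.77). Cluster 10, led by Hcar2, Spp1 and Ccl3, had 61.2 and 61.3 CPM. These clusters held 1759 and 1371 normoglycemic but only 117 and 143 diabetic neutrophils. Diabetic neutrophils were instead mostly in cluster 7, led by Rdh12 and Retnlg (1872 against 600 cells), and cluster 4, with hemoglobin genes, G0s2 and Cxcr2 among its leading genes (1328 against 580 cells). There Fcgr4 stood at 106 and 143 CPM (ratio 1.34, 1.17 to 1.54) and at 99.2 and 143 CPM (1.44, 1.22 to 1.70). The interferon-gene cluster 14 had the highest level, 122 and 210 CPM (1.71, 1.37 to 2.15), and the granule-gene cluster 8 had 61.4 and 94.0 CPM (1.53, 1.16 to 2.03). In cluster 5 the ratio was 0.855 (0.607 to 1.18). With these 7 clusters weighted equally, neutrophil Fcgr4 averaged 79.5 and 106 CPM, a ratio of 1.34, which is under the 1.5-fold limit. Cluster 29, with 445 diabetic neutrophils and 1 normoglycemic one and with salivary genes such as Dcpp3 and Dcpp1 high, held 132 CPM, and without it the class ratio was 2.11.

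**Figure D3:**
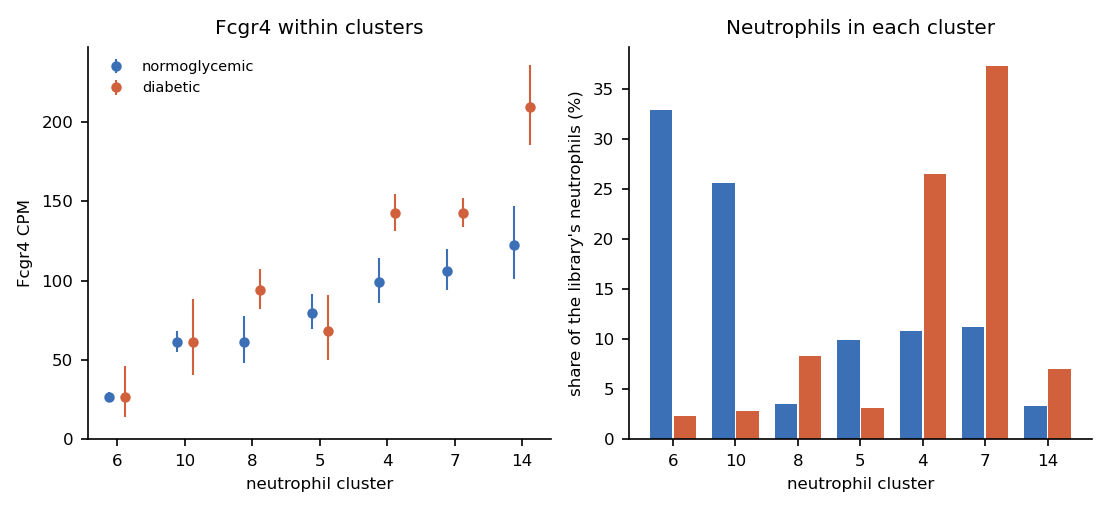
Left, Fcgr4 level (CPM) in the 7 neutrophil clusters with at least 50 neutrophils in each library, ordered by the normoglycemic level, with exact 95% counting intervals; right, the share of each library's neutrophils in these clusters. Clusters 6 and 10, at 26.5 and 61.2 CPM, hold most normoglycemic neutrophils, and clusters 4 and 7, at 143 CPM in the diabetic library, most diabetic ones.

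The Fcgr4 values were also split by the sex of the pooled mice. In neutrophils with Y-linked transcripts and no Xist (2773 normoglycemic and 1887 diabetic cells) the levels were 63.4 and 134 CPM (ratio 2.12, 1.94 to 2.31). In neutrophils with Xist and no Y-linked transcripts (50 and 235 cells, 31 and 125 UMIs) they were 95.9 and 94.6 CPM (0.986, 0.661 to 1.51). Cells with Xist made up 1.77% of normoglycemic and 11.1% of diabetic neutrophils that could be called, while 2488 and 2848 neutrophils had no sex call. In the normoglycemic library the same share was 7.23% in monocytes, 42.6% in macrophages and 46.6% in cDC2. In the diabetic library it was 49.5% in macrophages and 28.8% in cDC2. Because the share differed between classes of 1 pool, the neutrophil share cannot be read as the sex makeup of the pooled mice. Summed markers of monocytes stood at 209 and 566 CPM in neutrophils, with 7 of 7 detected in each library, and those of macrophages at 353 and 569 CPM, with 9 of 9 detected; their part in the result was not tested. The log2 ratio was 1.08, and 0.83 with edgeR's TMM factors or 0.78 with DESeq2 size factors; the median log2 ratio of all genes in neutrophils was 0.18.

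Fcgr4 was also higher in diabetic monocytes, at 81.3 against 61.2 CPM (ratio 1.33, 1.2 to 1.48), short of the limit, and lower in diabetic macrophages (0.90, 0.828 to 0.978). In macrophages the 2 sexes went different ways, with 0.659 (0.572 to 0.758) in cells with Y-linked transcripts and 1.22 (1.06 to 1.40) in cells with Xist. By macrophage subset, the resident cells, marked by Lyve1, Folr2 and Cd163, had 19.5 and 43.1 CPM (2.21, 1.5 to 3.33), and the lipid-associated cells, marked by Gpnmb and Trem2, had 65.5 and 47.7 CPM (0.729, 0.597 to 0.890). The MHC class II cells, the largest subset at 810 and 443 cells, had 88.8 and 91.8 CPM (1.03, 0.929 to 1.15). The 27 and 31 inflammatory cells had 19.0 and 52.5 CPM (2.77, 1.10 to 7.53), from 8 and 15 UMIs.

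In cDC2 both Fcgr1 and Fcgr4 were low but higher in the diabetic library. Both reached 10 CPM in that library only, so they were measured through the side where they were higher. Fcgr1 had 70 UMIs (8.31 CPM) against 82 UMIs (15.3 CPM), a ratio of 1.84 (1.32 to 2.57), and Fcgr4 had 68 UMIs (8.07 CPM) against 77 UMIs (14.4 CPM), a ratio of 1.78 (1.27 to 2.50). Of the 6 receptors measured in cDC2, 2 were thus higher and 2 were lower, where 6.76% of genes were higher and 6.85% lower. The Fcgr4 ratio was 0.727 (0.415 to 1.25) in cDC2 with Y-linked transcripts and 6.19 (3.41 to 11.8) in cDC2 with Xist, and for Fcgr1 these were 1.36 (0.902 to 2.07) and 5.19 (2.36 to 12.3). With clusters in place of the gate the Fcgr1 ratio was 1.24.

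Fcgr1, the high-affinity receptor, was lower in diabetic monocytes (0.670, 0.620 to 0.724) and macrophages (0.877, 0.818 to 0.939). In the monocytes of cluster 13, led by Chil3 and Vcan, the ratio was 0.571. In those of cluster 9, whose 10 leading genes (Ptges, Saa3 and Nos2 among them) include 0 monocyte markers and 3 of inflammatory macrophages, it was 1.05. Fcgr3 was within 1.5-fold in all 5 myeloid classes, with ratios from 0.749 in cDC2 to 1.03 in neutrophils; the neutrophil value changed sign to a log2 ratio of -0.21 with TMM factors and -0.26 with size factors. Fcer1g was at 1.25 (1.24 to 1.26) in neutrophils, 0.891 in monocytes, 0.990 in macrophages, 0.980 in cDC1 and 1.08 in cDC2. Its neutrophil log2 ratio of 0.32 depended on scaling, because TMM factors shift it by -0.25 and size factors by -0.30. In neutrophils with Xist the Fcer1g ratio was 1.01 (0.941 to 1.09), and in those with Y-linked transcripts 1.27 (1.25 to 1.29).

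Fcgr2b, the inhibitory receptor, was lower in the diabetic library in each of the 5 myeloid classes, and past the limit in 3 of them. Normoglycemic monocytes held 5715 UMIs (534 CPM) and diabetic ones 2916 (296 CPM), a ratio of 0.555 (0.531 to 0.581). It was the 1 receptor of 5 measured in monocytes past the limit, where 8.24% of genes were lower and 7.37% higher. In cDC2 the level was 428 against 252 CPM (0.588, 0.552 to 0.627), and in cDC1 111 against 67.1 CPM (0.604, 0.519 to 0.703), where Fcgr2b was the 1 of 3 measured receptors past the limit and 6.64% of genes were lower and 5.13% higher. In macrophages 678 against 466 CPM gave 0.687 (0.668 to 0.708). Neutrophils were at 0.859 (0.785 to 0.940). Without the cells of the highest doublet scores their Fcgr2b level was 35.3 and 30.4 CPM (0.863, 0.772 to 0.965). Langerhans cells, at 82 and 28 cells, held 217 and 241 CPM (1.11, 0.892 to 1.37).

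By cluster, cells gated as monocytes gave Fcgr2b ratios of 0.605 in cluster 9, with its inflammatory macrophage genes, and 0.584 in cluster 13. Cells gated as macrophages gave 0.627 in cluster 2, 0.782 in cluster 3 and 0.771 in cluster 12, whose leading genes, Cd207 first, include 2 Langerhans cell markers and 0 macrophage markers. The 52 and 50 macrophages in cluster 20, an unnamed cluster led by endothelial genes, gave 1.51 (0.929 to 2.49). In cells with Y-linked transcripts the ratio was 0.616 in monocytes, 0.640 in macrophages, 0.430 in cDC2 and 0.675 in cDC1. In cells with Xist it was 0.732, 0.802 and 0.878 in the first 3, none past the limit, and 0.546 in cDC1, past it. Neutrophils with Xist gave 1.33 (0.733 to 2.63) from 13 and 71 UMIs. After thinning, 39.8% (36.6 to 43.0) of normoglycemic and 25% (22.2 to 28.0) of diabetic monocytes had a Fcgr2b UMI, against 0.67% and 0.541% of alpha-beta T cells; without thinning the monocyte shares were 89.7% and 78.6%, at median depths of 11389 and 10887 UMIs.

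The balance of activating over inhibitory transcripts, (Fcgr1 + Fcgr3 + Fcgr4) over Fcgr2b, needs no scaling between libraries. In macrophages it was 1.08 in the normoglycemic and 1.48 in the diabetic library, a ratio of 1.37 (1.32 to 1.43). Monocytes had 1.24 and 1.91 (1.54, 1.46 to 1.63), cDC2 0.555 and 0.776 (1.4, 1.27 to 1.54) and cDC1 0.279 and 0.509 (1.82, 1.36 to 2.44). Neutrophils, with the largest excess of activating transcripts, had 12.4 and 16.4 (1.33, 1.21 to 1.45). Their Fcgr2b counts of 1238 and 803 UMIs were 805 and 530 without the cells of the highest doublet scores. The size of the neutrophil balance thus depends on those cells. Langerhans cells had 0.525 and 0.504 (0.960, 0.658 to 1.39). The balance was lower in diabetic B cells, at 0.584 and 0.265 (0.454, 0.216 to 0.90). Of their 108 and 13 activating UMIs, 88 and 8 were of Fcgr3. Without the cells of the highest doublet scores, Fcgr3 had 10 and 6 UMIs in B cells, beside 118 and 47 of Fcgr2b. The B cell balance thus depends on those cells, and its direction without them was not tested. The ratio was 0.582 (0.302 to 1.11) in mature dendritic cells, 0.535 (0.179 to 1.65) among gamma-delta or type 17 T cells, and for alpha-beta T cells 1.09 (0.30 to 4.44). The macrophage subsets gave 1.21 (1.10 to 1.34) in resident, 1.31 (1.2 to 1.43) in lipid-associated and 1.39 (1.31 to 1.47) in MHC class II cells, and 2.41 (1.80 to 3.23) in the 27 and 31 inflammatory cells.

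Fcrls had the largest difference of all measured pairs. In cDC2 it had 2079 UMIs in 457 normoglycemic cells and 220 in 340 diabetic cells, 247 against 41.0 CPM, a ratio of 0.166 (0.144 to 0.191). A Fcrls UMI was found in 230 of 457 normoglycemic cDC2 (50.3%, 45.6 to 55.0) and 55 of 340 diabetic ones (16.2%, 12.4 to 20.5), and after thinning in 17.5% and 3.24%, against 0.446% and 0% of alpha-beta T cells. In macrophages it had 2536 and 725 UMIs, 138 and 47.9 CPM, a ratio of 0.348 (0.320 to 0.378). It was the 1 receptor of 6 measured in macrophages past the limit, where 3.75% of genes were lower and 2.48% higher. Both sexes gave like values, 0.195 with Y-linked transcripts and 0.142 with Xist in cDC2, and 0.330 and 0.345 in macrophages.

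The makeup of the macrophage class differed between the libraries, but Fcrls was lower within each subset. Resident cells, where it was highest, were 11.8% of normoglycemic and 17.7% of diabetic macrophages and held 234 and 71.8 CPM (0.306, 0.254 to 0.368). MHC class II cells were 55.4% and 32.6% and held 142 and 62.9 CPM (0.444, 0.395 to 0.497), and lipid-associated cells were 15% and 28.1% and held 72.6 and 19.4 CPM (0.267, 0.206 to 0.343). By cluster the ratios in gated macrophages were 0.352 in cluster 2, 0.389 in cluster 3 and 0.0685 in cluster 12, the one led by Cd207, where 85 UMIs stood against 5. Normoglycemic cDC2 with a Fcrls UMI carried a median of 3 of 9 macrophage and 6 of 8 cDC2 markers, and diabetic ones 3 of 9 and 5 of 8. In them the macrophage complement gene C1qa stood at 68.3 and 77.1 CPM, against 3023 and 3228 CPM in macrophages with a Fcrls UMI. The mannose receptor gene Mrc1 was higher in cDC2 with a Fcrls UMI than in those without, at 470 against 267 CPM in the normoglycemic and 465 against 231 CPM in the diabetic library, beside 1609 and 1404 CPM in macrophages with one. Flt3, a dendritic cell receptor gene, was lower in them, at 54.1 against 113 and 49.6 against 125 CPM. Cells with a Fcrls UMI were also deeper, with median depths of 20280 against 16139 and 17016 against 15450 UMIs. The cDC2 marker Cd209a stood at 802 and 244 CPM in the cDC2 with Fcrls, and at 754 and 206 CPM in those without. Summed over all 9, macrophage markers in cDC2 stood at 868 and 621 CPM (ratio 0.715), with 9 detected in each library; their part in the Fcrls result was not tested.

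**Figure D4:**
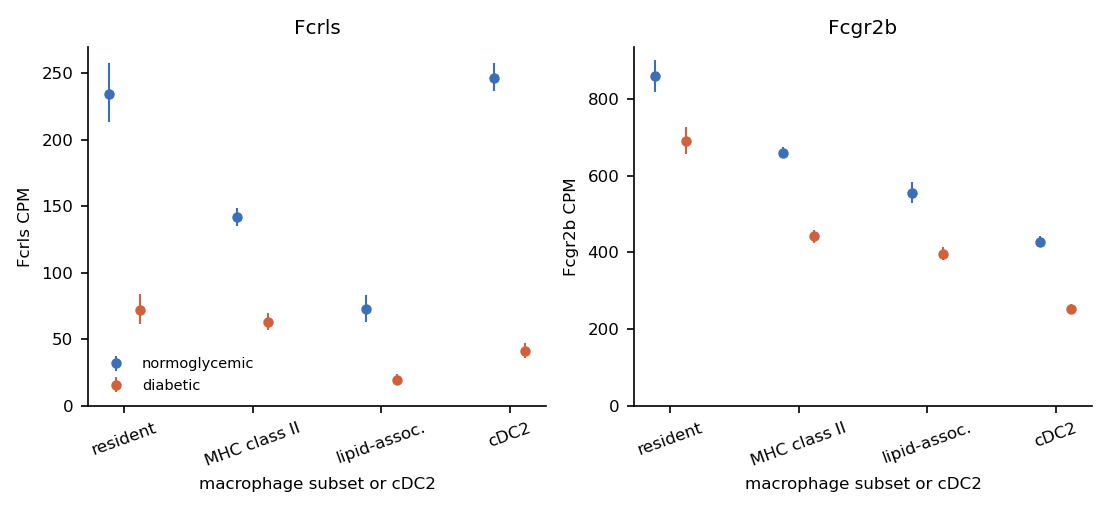
Levels (CPM) of Fcrls, left, and Fcgr2b, right, in 3 macrophage subsets and in cDC2 of the normoglycemic (blue) and diabetic (orange) library, with exact 95% counting intervals. Each diabetic value lies below the normoglycemic one, from 234 to 71.8 CPM for Fcrls and from 860 to 690 CPM for Fcgr2b in resident macrophages.

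Mast cells numbered 42 in the normoglycemic and 31 in the diabetic library, too few for the class comparison. Fcer1a had 115 UMIs, or 682 CPM (563 to 818), in the first and 286 UMIs, or 2455 CPM (2178 to 2756), in the second, a ratio of 3.6 (2.89 to 4.51). A UMI was found in 28 of 42 and 28 of 31 cells. Per cell the count ran from 0 to 23 with a median of 1 in the normoglycemic library and from 0 to 38 with a median of 5 in the diabetic one, at median depths of 3093 and 3273 UMIs. The ranges of the libraries overlapped, and the 3 cells with the most Fcer1a held 42.6% and 33.9% of its UMIs. The partner chains differed less. Fcer1g stood at 3390 CPM in both libraries (1.0, 0.877 to 1.14), and Ms4a2, the beta chain of the same receptor, at 930 and 884 CPM. The mast cell proteases Mcpt4 and Cma1 were at 49345 and 36681 CPM and at 35874 and 38664 CPM. Fcgr2b, which restrains mast cells, had 43 and 18 UMIs (255 and 154 CPM; 0.606, 0.329 to 1.07), and Fcgr3 19 and 21 UMIs (113 and 180 CPM; 1.6, 0.819 to 3.15).

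**Figure D5:**
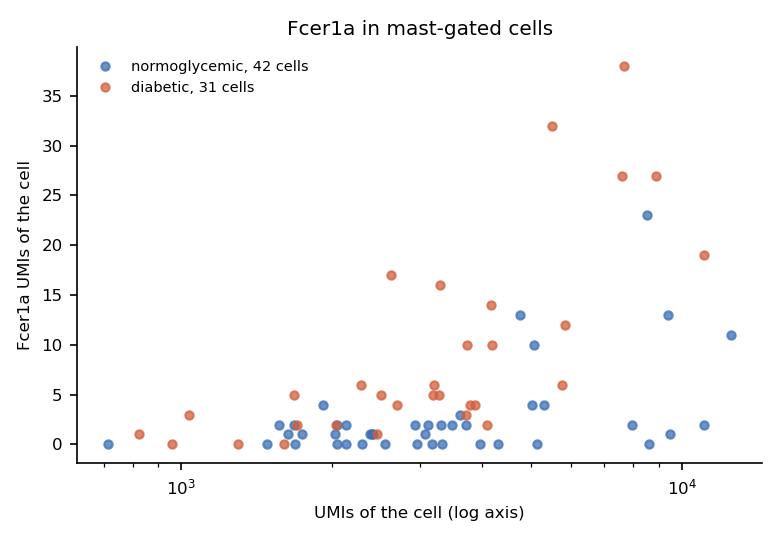
Fcer1a UMIs of each mast cell against the UMIs of that cell (log axis), in the normoglycemic (blue, 42 cells) and diabetic (orange, 31 cells) library. Diabetic cells reach 38 Fcer1a UMIs and normoglycemic cells 23, and cells of both libraries lie at 0.

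Lymphoid cells held Fcgr2b, in B cells, and low counts of the other receptors. In B cells Fcgr2b had 185 and 49 UMIs (106 and 64.6 CPM; ratio 0.610, 0.436 to 0.840), Fcer1g 401 and 60 UMIs (229 and 79.1 CPM; 0.345, 0.258 to 0.453) and Fcgr3 88 and 8 UMIs (50.4 and 10.5 CPM; 0.209, 0.0877 to 0.431). All 3 measured receptors were thus past the limit in B cells, where 25.3% of genes were lower and 9.38% higher. The same held for 2 of 3 in alpha-beta T cells (17.5% of genes lower, 9.36% higher) and 1 of 2 in gamma-delta or type 17 T cells (16.3% lower, 6.83% higher). Neutrophil markers moved with these values: their 10 genes, all detected, summed to 6451 and 1626 CPM in B cells, 3293 and 444 CPM in alpha-beta T cells and 4147 and 2683 CPM in gamma-delta or type 17 T cells.

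Without the cells of the highest doublet scores, the neutrophil markers in B cells came to 1864 and 604 CPM, those in alpha-beta T cells to 1065 and 400.1 CPM and those in gamma-delta or type 17 T cells to 1467 and 2488 CPM. The Fcer1g ratio in B cells was then 1.03 (0.632 to 1.64), from 39.0 and 40.0 CPM, and the Fcgr3 ratio 1.19 (0.355 to 3.61). Fcgr3 gave 1.10 (0.346 to 3.05) in alpha-beta T cells and 1.48 (0.704 to 3.13) in gamma-delta or type 17 T cells, so neither stayed lower. Fcgr2b in B cells, at 0.790 (0.551 to 1.12), kept its direction but not its size. After thinning, 7.88% of normoglycemic and 7.86% of diabetic B cells had a Fcgr2b UMI (30.1% and 28.6% without thinning, at median depths of 4707.5 and 4328 UMIs). The natural killer cells' Fcgr3, the receptor of antibody-dependent killing, had 47 and 15 UMIs (101 and 47.6 CPM; 0.470, 0.244 to 0.855), with 57.4% and 46.7% of them in 3 cells.

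Other genes of Fc receptor biology were counted from lists chosen with the members. Of 14 genes of ITAM signalling, 11 were measured in neutrophils, with 2 higher and 1 lower, where 20.3% of all genes were higher and 13% lower. Tyrobp, an adaptor chain like Fcer1g, stood at 2502 and 3825 CPM (1.53, 1.51 to 1.55), the phospholipase Plcg2 at 11.6 and 17.6 CPM (1.51, 1.29 to 1.77), and the exchange factor Vav1 at 73.5 and 39.5 CPM (0.538, 0.494 to 0.585). With the log2 shift of -0.25 that TMM factors give in neutrophils, Tyrobp and Plcg2 fall within 1.5-fold. The same shift moves Syk (ratio 0.671), Lcp2 (0.668) and Btk (0.765), within the limit before it, past the limit on the lower side. Syk, the kinase that binds the gamma chain, was lower in monocytes, at 274 and 172 CPM (0.629, 0.592 to 0.668), the 1 of 13 measured genes past the limit there (8.24% of all genes lower). None of 12 was past it in macrophages, where Syk was at 0.787. The median log2 ratios of this list were 0.27 in neutrophils, -0.16 in monocytes and -0.06 in macrophages, beside 0.18, 0.00 and -0.01 for all genes. Among 8 genes of inhibitory signalling, none was past the limit in neutrophils (5 measured), monocytes or macrophages (8 measured in each). Inpp5d, the phosphatase that acts for Fcgr2b, was at 0.764 in monocytes and 0.916 in macrophages. In cDC2, where 6.85% of all genes were lower, the adaptor Dok2 was the 1 of 8 past it, at 109 and 72.2 CPM (0.663, 0.587 to 0.747).

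Other receptors that pair with the Fcer1g chain, chiefly C-type lectins, included lower members. Clec4n (Dectin-2) had 301 and 199 CPM in neutrophils (0.663), 408 and 115 CPM in monocytes (0.281, 0.263 to 0.30) and 196 and 105 CPM in macrophages (0.538). Clec4d was lower in monocytes, at 959 and 589 CPM (0.614), so that 2 of the 5 measured genes of this list were past the limit there and 1 of 4 in neutrophils, beside 8.24% and 13% of all genes lower. In macrophages, where 3.75% of all genes were lower and 2.48% higher, 2 of 5 were lower, Clec4n and Clec4b1 (0.584), and Pira2, a paired immunoglobulin-like receptor, was higher, at 65.4 and 105 CPM (1.6, 1.48 to 1.73). Of the other Fc-binding proteins, the neonatal Fc receptor Fcgrt, which recycles immunoglobulin G, was at 154 and 142 CPM in macrophages (0.919) and at 11.6 and 25.1 CPM in monocytes (2.17, 1.74 to 2.71). In B cells 3 of 6 measured genes of that list were lower, where 25.3% of all genes were lower and neutrophil markers summed to 6451 and 1626 CPM, with Fcrla at 215 and 121 CPM (0.564, 0.444 to 0.710) and Fcrl1 at 119 and 69.9 CPM (0.587, 0.426 to 0.797).

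Transcripts of immunoglobulin heavy chains were also found in cells that do not make antibody. In macrophages Ighm stood at 144 and 47.4 CPM and Igha at 0.108 and 12.1 CPM (2 against 183 UMIs). Igha was likewise higher in diabetic neutrophils, with 9 and 377 UMIs. B cells held more of the immunoglobulin G transcript Ighg2b in the diabetic library, at 99.6 and 299 CPM (3.00, 2.46 to 3.68).

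Across the 8 classes and both libraries (16 points of log2(CPM + 1), which share libraries and depth), the genes with the level pattern most like each receptor were named by Pearson's r. For Fcgr1 these included Pgd (0.959) and Rcan1 (0.956), for Fcgr2b they were Cfp (0.961), Lifr and Rnf130, and for Fcgr3 Ccl6 (0.980), Gda and Atp6v0c. Fcgr4 was most like Zfp36 (0.957), Lamp2 and Tcn2, Fcer1g like Pxn (0.988), App and Tyrobp (0.978), and Fcrls like Retnla (0.921), Gfra2 and Gm10134. Among the members, Fcgr3 and Fcer1g had the most alike patterns (0.938), followed by Fcgr3 and Fcgr4 (0.921), and Fcgr4 and Fcrls the least (0.368).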

How the data were processed

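The deposited files hold UMI counts per gene and cell, made by the authors from 10x Genomics 3′ v3 libraries with Cell Ranger on mm10. The version is 4.0.0 in the matrix header and 6.0.2 in the submitters' processing notes; the annotation release is not given in the sources used here. Counts were taken as deposited. Barcodes needed 500 UMIs and 200 genes, and no more than 15% mitochondrial UMIs. Scrublet (scanpy 1.11.5) called 0 doublets in both libraries, so its calls had not worked and no cell was removed by them. The expected rates were 8.91% and 8.31%. The cells of the highest doublet scores, left out as an alternative, were those ranked highest by Scrublet's score, cut at these rates (990 and 856 cells). Whether these scores mark doublets was not tested. A cell's class was the marker list with the highest score (mean over markers of log level relative to its 90th percentile, capped; at least 0.2, at least 0.05 above the next, 3 markers detected). Leiden clusters (30, on variable genes without the members) gave the same name in 91.2% of 18920 cells named by both. Counts were summed per class and library and divided by its UMIs. Ratios have exact conditional binomial intervals, levels exact Poisson ones and shares Clopper-Pearson ones; ratios of ratios have exact conditional intervals, or Woolf's where counts are large. Of these, only the ratio interval was tested, on simulated Poisson counts. That is the model it assumes, and spread between cells was not simulated. edgeR 4.0.16 gave TMM factors and DESeq2 size factors, as alternatives only.

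The members, gene lists and comparisons were chosen with earlier results of these data known, and the gate's limits after a look at the data. Of list genes, those 1.5-fold apart with an interval beyond 1.2-fold were named, up to 3 per list by level; the 3 most similar genes per member were named among those reaching 50 CPM, and 1 of them is not reported here. The 4 antibody capture features are not described in the labels, and were used only to leave out tagged cells as an alternative. Syk, Inpp5d and Fcgrt were also given for their roles in classes where that rule did not name them. Syk, Lcp2 and Btk were given in neutrophils because TMM scaling moves them past the limit.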

Additional observations from a re-analysis of the deposited data

Results flagged for a closer look

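The tables carry counts for 4 antibody capture features that the labels do not describe. Strong capture counts (at least 50 UMIs, over 90% of them of 1 feature) were found in 388 normoglycemic and 230 diabetic cells, outside the gene measurement. Leaving those cells out gave the same direction for each called receptor and class pair.

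In 3 called pairs the ratios in cells of the 2 sexes of the pooled mice lay on either side of 1. Each value comes from 1 pool and the difference was not tested. Among neutrophils only 50 normoglycemic and 235 diabetic cells were in the Xist group, and 2488 and 2848 had no sex call. Fcgr4 in neutrophils had a diabetic over normoglycemic ratio of 2.12 (1.94 to 2.31) in cells with Y-linked transcripts and 0.986 (0.661 to 1.51), close to 1, in cells with Xist. Fcgr4 in cDC2 had 0.727 (0.415 to 1.25) and 6.19 (3.41 to 11.8). Fcer1g in B cells had 0.170 (0.10 to 0.274) and 1.79 (1.04 to 2.99).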

How the results depend on the processing

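No paired analysis was possible because each condition is 1 pool. The total of lower receptor and class pairs, 11, was 6 without the highest doublet scores, 7 in cells with Xist and 19 with no minimum level. The total of higher pairs, 3, was 1 in cells with Y-linked transcripts and 8 with no minimum. Totals do not say which pairs. The macrophage activating over inhibitory ratio of 1.37 was 1.32 as a mean over cells and 1.29 in cells with Y-linked transcripts. Among called pairs, reversed log2 ratios without the highest doublet scores were 0.14 (Fcgr3, alpha-beta T), 0.57 (Fcgr3, gamma-delta or type 17 T), 0.25 (Fcgr3, B) and 0.039 (Fcer1g, B). With Xist they were -0.021 (Fcgr4, neutrophils, 156 UMIs) and 0.84 (Fcer1g, B), and with Y-linked transcripts -0.46 (Fcgr4, cDC2, 62 UMIs). Fcer1g in gamma-delta or type 17 T cells, not a called pair, went from -0.56 to 0.75 without the highest doublet scores. The cause was not tested. Fcrls stayed past 1.5-fold in cDC2 and in macrophages under all 13 alternatives run for it, and Fcer1a in mast cells under all 9. Clusters weighted equally, cells without shared barcodes, without tagged cells and without cluster 29 were alternatives added after seeing the data. Few UMIs, from few cells or low levels, stand behind the lymphoid and mast cell values and the sex-split values of Fcgr4 in cDC2.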

Other observations

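Cells gated as Schwann cells, which wrap nerves, were 3 in the normoglycemic and 54 in the diabetic library. In the diabetic ones Fcgr2b had 162 UMIs, or 441 CPM (375 to 514), and was found in 24 of 54 cells, with 43.8% of its UMIs in 3 cells. Fcer1g had 59 UMIs there (160 CPM) and Fcgr3 had 7. Fibroblasts of the same library, at 256 cells, held 8.53 CPM of Fcgr2b and 71.3 CPM of Fcer1g. The 3 normoglycemic Schwann cells had 0 Fcgr2b UMIs in 14207 UMIs, an interval of up to 260 CPM for counting error in 3 cells only.

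Cells placed in no class, 969 normoglycemic and 946 diabetic, held Fcgr2b at 454 and 244 CPM (ratio 0.538), Fcrls at 93.8 and 24.9 CPM (0.266) and Fcgr4 at 29.4 and 38.4 CPM (1.30). Plasmacytoid dendritic cells, 12 and 24 in number, held Fcer1g at 1092 and 1470 CPM and no Fcgr1, Fcgr4, Fcer1a or Fcrls UMI.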
